A study of Arabidopsis thaliana with 6 samples.

Results

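The genes described here encode proteins of the cytosolic 40S ribosomal subunit in Arabidopsis thaliana. A set of 46 loci for 17 proteins of this subunit was listed, and their expression was compared between callus and leaf. Of the 46 genes, 33 had a probe set of their own on the array, out of 13356 genes measured in all. The other 13 genes were read by 6 probe sets that the platform's gene table assigns to 2 or 3 genes of one protein, and these are given apart.

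RNA came from 3 callus and 3 leaf samples, all Col-0, 1 Affymetrix array each. Leaves were taken from 20-day-old seedlings, and calli had grown from leaf blades of that age during 20 days on callus-inducing medium (CIM), which contains glucose, the cytokinin kinetin and the auxin 2,4-dichlorophenoxyacetic acid. The methods describe the 3 arrays of a tissue as independent experiments and state that explants were kept in the dark, whereas the sample labels give 16 h of light and 8 h of darkness at 21 degrees C for both tissues, so whether light differed between the groups is unsettled. Tissue, medium, hormones and time in culture differed together between the groups and cannot be told apart. Expression is given as the log2 signal of a probe set after RMA normalization, so a step of 1 is a 2-fold difference, and log2 fold changes are callus minus leaf.

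The 40S subunit binds the mRNA, scans it for the start codon and reads each codon against tRNA. It has a head, a body and a platform: the mRNA enters between head and body and leaves at the platform. In Arabidopsis each ribosomal protein is encoded by a small family of nearly identical paralogous genes, most of them expressed strongly, and demand for new ribosomes is high in dividing tissue. The subunits are put together in the nucleolus by assembly factors that do not stay in the finished ribosome. Plastids have ribosomes of their own, of bacterial type, whose proteins are partly encoded in the nucleus.

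Genes for 40S proteins were higher in callus as a group. All 33 had a higher mean in callus than in leaf, 30 of them were higher by the test (adjusted p under 0.05 and more than 2-fold), and 0 were lower. Among all genes tested, 16.4% were higher by the same rule and 13.2% were lower, 29.6% in either direction. The median log2 fold change of the 33 genes was 1.91, a 3.77-fold difference, and that of all genes was 0.01. The smallest of the 33 changes was 0.23 and the largest 2.85. More than 4-fold differences were found for 16 of the 33 genes, against 6.28% of all genes. In each of the 33 genes the 3 callus arrays lay wholly above the 3 leaf arrays, as they did in 36.7% of all genes, and in 66.0% the tissues did not overlap in one direction or the other. Since bulk tissue was measured, more cells with high ribosomal protein expression and more such RNA per cell cannot be told apart. At an adjusted p under 0.05 with no demand on the fold, 32 of the 33 genes were higher, against 34.4% of all genes.

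The spread between replicates was small beside these differences. The median SD of the 33 genes was 0.0463 among callus arrays and 0.0636 among leaf arrays, and the largest SD in either tissue was 0.244, in the leaf arrays of RPS4A. For the 30 genes called higher, the gap between the lowest callus array and the highest leaf array was at least 0.99 on the log2 scale. The median over the 33 genes was 11.88, 11.82 and 11.71 in callus replicates 1 to 3 and 9.78, 9.78 and 9.79 in leaf replicates 1 to 3.

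**Figure D1:**
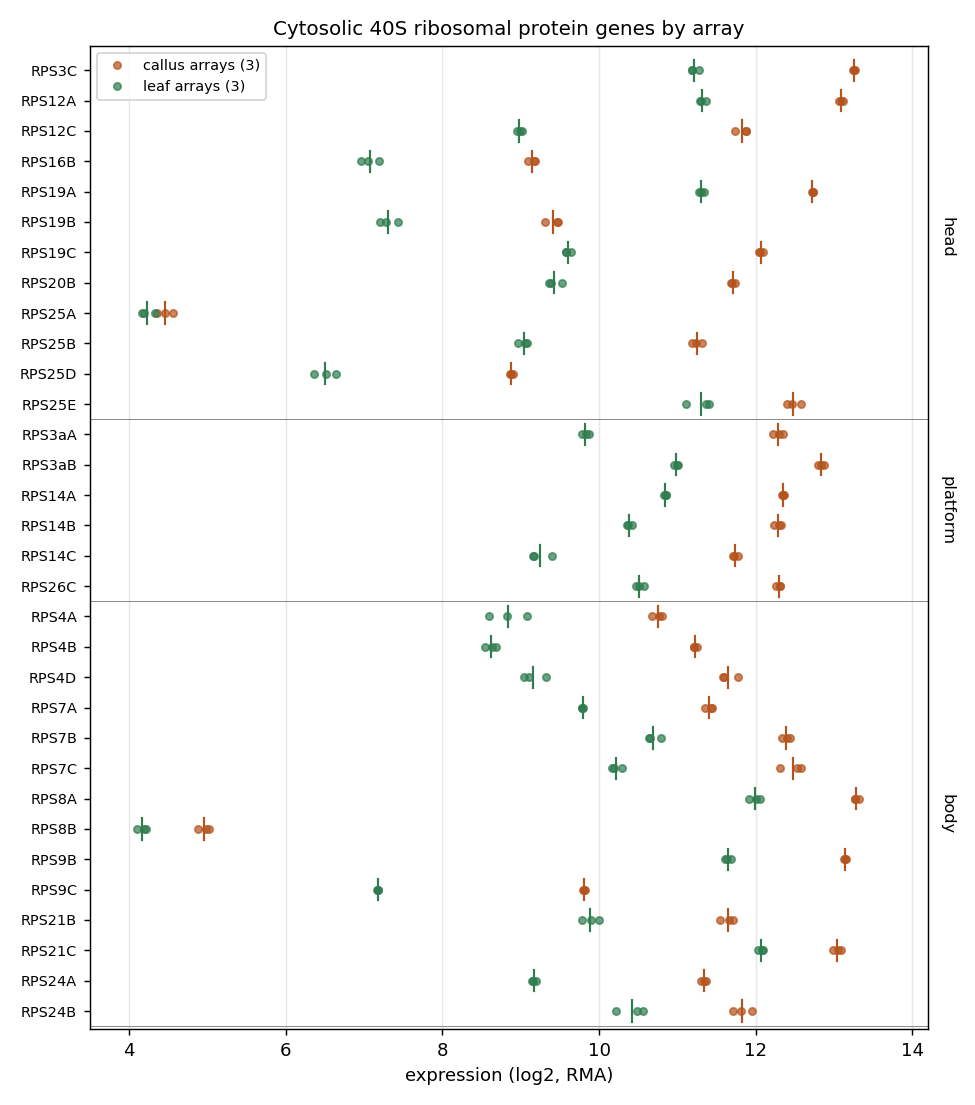
Log2 expression of 32 of the 33 genes with a probe set of their own (rows, grouped by head, platform and body) on each array (points, 3 callus in orange and 3 leaf in green, short vertical lines for the means). The callus points lie to the right of the leaf points in every row, and RPS25A and RPS8B stand apart at the dim end.

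Of 13 measured genes for proteins of the head, 12 were higher in callus and RPS25A was not called, with a median log2 fold change of 2.11. RPS12C (AT2G32060), for a protein of the beak of the head, had the largest change of all. Its signals were 11.88, 11.88 and 11.73 in callus and 9.01, 8.95 and 8.99 in leaf. The tissues differed by 2.85 ± 0.0564 (log2 fold change, SE, n = 3, limma adjusted p = 6.13e-16), or 7.20-fold. The paralogue RPS12A (AT1G15930) was brighter in every array, at 13.12, 13.09 and 13.07 in callus and 11.29, 11.37 and 11.30 in leaf, and rose 3.42-fold. RPS3C, whose protein lines the mRNA entry, rose 4.12-fold, RPS20B 4.85-fold and RPS16B, whose protein reaches towards the tRNA in the decoding centre, 4.22-fold.

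The 3 RPS19 genes, also of the head, all rose. RPS19C (AT5G61170) stood at 12.06, 12.10 and 12.04 in callus and 9.58, 9.64 and 9.58 in leaf. Signals of RPS19B (AT5G15520) were lower throughout, at 9.47, 9.47 and 9.31 against 7.28, 7.43 and 7.21. RPS19A (AT3G02080) read 12.72, 12.73 and 12.73 in callus and 11.34, 11.31 and 11.27 in leaf. Their log2 fold changes were 2.47 ± 0.0485, 2.11 ± 0.0800 and 1.42 ± 0.0414 (SE), so the rise was 5.53-fold, 4.32-fold and 2.67-fold.

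RPS25 was the protein with the widest spread among its genes. In yeast and mammals it is known for its part in translation from internal entry sites. RPS25D (AT4G34555) was at 8.90, 8.86 and 8.88 in callus and 6.36, 6.51 and 6.64 in leaf, a 5.18-fold rise. RPS25B (AT2G21580) gave 11.31, 11.24 and 11.19 in callus and 9.06, 9.09 and 8.97 in leaf, 4.63-fold higher. RPS25E (AT4G39200) was the called gene closest to the 2-fold threshold, with 12.58, 12.47 and 12.40 against 11.37, 11.11 and 11.41 and a 2.27-fold rise. The fourth gene, RPS25A (AT2G16360), was not called. It read 4.46, 4.36 and 4.56 in callus and 4.16, 4.19 and 4.34 in leaf, a log2 fold change of 0.23 ± 0.0997 (SE, adjusted p = 0.0569). These values lie at the dim end of the arrays, whose first quartiles were 4.15 to 4.23, and RMA gives no background level. At such a dim probe set, a small change and an unmeasurable one look the same.

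All 6 measured genes of the platform rose, with log2 fold changes from 1.51 to 2.49 and a median of 1.87. RPS14C (AT3G52580) had the largest change of them, with 11.72, 11.77 and 11.71 in callus and 9.16, 9.40 and 9.18 in leaf, a 5.61-fold rise. RPS14B and RPS14A rose 3.74-fold and 2.84-fold. The RPS3a pair, at the mRNA exit side, rose 5.51-fold (RPS3aA) and 3.60-fold (RPS3aB), and RPS26C, whose protein contacts the mRNA upstream of the start codon, rose 3.43-fold.

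Among 14 genes of the body 12 were higher and 2 were not called, with a median log2 fold change of 1.72. RPS9C (AT5G39850), for a protein near the mRNA entry, had the largest rise, 6.22-fold, from 7.17, 7.18 and 7.17 in leaf to 9.82, 9.80 and 9.81 in callus. RPS9B (AT5G15200) rose 2.83-fold, from 11.63, 11.69 and 11.60 to 13.15, 13.13 and 13.14. RPS4B (AT5G07090) rose 6.08-fold, with 8.55, 8.64 and 8.69 in leaf and 11.21, 11.22 and 11.26 in callus. RPS4D (AT5G58420) was close to it, rising 5.63-fold from 9.33, 9.04 and 9.10 to 11.77, 11.59 and 11.59. RPS4A rose 3.77-fold, and RPS7C, RPS7B and RPS7A rose 4.78-fold, 3.24-fold and 3.07-fold. RPS24A rose 4.50-fold.

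The smallest changes of the body were those of RPS24B, RPS8A, RPS21C and RPS8B. RPS24B (AT5G28060) rose 2.65-fold, with 11.96, 11.82 and 11.71 in callus and 10.56, 10.22 and 10.49 in leaf. RPS8A (AT5G20290) rose 2.45-fold, with 13.26, 13.27 and 13.32 against 11.91, 12.06 and 12.01. RPS21C (AT5G27700) lay just under the 2-fold threshold at 13.08, 12.99 and 13.05 in callus and 12.10, 12.03 and 12.09 in leaf, 1.96-fold (log2 fold change 0.97 ± 0.0418, SE, adjusted p = 6.58e-12). Its paralogue RPS21B rose 3.37-fold. RPS8B (AT5G59240) was dim in both tissues, at 4.98, 5.02 and 4.88 against 4.10, 4.22 and 4.196. Its log2 fold change was 0.79 ± 0.102 (SE, adjusted p = 4.21e-06), below the fold threshold. Leaf values of RPS8B were near the first quartile of the arrays, so its fold is not exact. The 14 genes given above by fold alone had log2 fold changes between 1.51 and 2.46, and their callus and leaf arrays were at least 1.49 apart.

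Probe sets shared by several genes of one protein gave the same direction. All 6 were higher in callus when added to the fit, a choice made after seeing the data, with log2 fold changes from 1.08 to 2.07. The set shared by RPS3A and RPS3B read 12.37, 12.30 and 12.26 in callus and 10.36, 10.15 and 10.23 in leaf (4.19-fold). The set of RPS16A and RPS16C was the brightest, at 13.61, 13.62 and 13.52 against 12.10, 12.07 and 12.17 (2.77-fold). The RPS23 set, for a protein at the decoding site with no other measured gene, changed least (2.11-fold, from 12.03, 11.75 and 11.95 in leaf to 13.05, 12.94 and 12.97 in callus). The sets of RPS20A with RPS20C and of RPS26A with RPS26B were 3.16-fold and 2.90-fold higher. How much each gene contributed to a shared signal is unknown.

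For 4 of the proteins 1 further gene with its own probe set was set against the shared set on the same arrays, a comparison chosen after seeing the data. RPS20B and RPS16B rose more than their shared sets by 0.62 (log2, 95% interval 0.45 to 0.79, limma adjusted p = 4.52e-06) and 0.61 (0.45 to 0.77), and RPS26C by 0.24 (0.07 to 0.41). RPS3C and the RPS3 set did not differ by the test (-0.03, 95% interval -0.19 to 0.14, adjusted p = 0.798).

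The next question was whether paralogues of one protein changed alike. Signals of different probe sets cannot be compared as amounts of RNA, so the difference between 2 paralogues was taken within each array and compared between tissues. This gives the difference between their log2 fold changes, which a constant shift of a whole array does not alter. A normalization that depends on the signal can alter it. Quantile normalization run again moved the difference of RPS8A and RPS8B from 0.50 to 0.60. Whether a probe set also reads RNA of a nearly identical paralogue was not tested, and the within-array difference does not remove such signal. With 11 proteins having 2 to 4 measured genes, 24 pairs were compared. Of these, 7 differed by more than 2-fold at an adjusted p under 0.05 over all genes and pairs, in 4 proteins. At any size 21 of 24 differed. The within-array differences of those 21 pairs did not overlap between tissues, and their exact permutation p was 0.1, the smallest that 3 arrays against 3 allow. The median difference of the 24 pairs was 0.69 and the range 0.08 to 2.14 (log2). Pairs of unrelated genes were not compared, so whether paralogues differ more or less often than other pairs is unknown. Among single genes 29.6% were called in either direction, and in 66.0% the tissues did not overlap. With no demand on the fold, 4598 of the 13356 genes were higher and 3572 lower at an adjusted p under 0.05. Pairs that share a gene are not independent, and 6 of the 24 pairs were from RPS25.

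The called pairs lay in RPS9, RPS12, RPS19 and RPS25. RPS9C rose more than RPS9B by 1.14 (95% interval 0.99 to 1.29, adjusted p = 6.14e-10). On single arrays RPS9B minus RPS9C was 3.33, 3.33 and 3.33 in callus and 4.46, 4.51 and 4.43 in leaf. RPS12C exceeded RPS12A by 1.07 (0.93 to 1.22), their difference being 1.24, 1.21 and 1.34 in callus against 2.28, 2.42 and 2.31 in leaf. RPS19C exceeded RPS19A by 1.05 (0.92 to 1.19). Intervals of these 3 pairs reach below 1, so a difference of more than 2-fold is measured but not assured. In RPS25 the gene RPS25A lagged RPS25D by 2.14 (1.83 to 2.46) and RPS25B by 1.98 (1.70 to 2.26), and RPS25E lagged RPS25D by 1.19 (0.98 to 1.40) and RPS25B by 1.03 (0.83 to 1.22). The intervals of RPS25E against RPS25D and against RPS25B also reach below 1. Only 2 of the 7 called pairs had a lower bound above 2-fold, and both involve RPS25A. Differences that involve the dim RPS25A carry the limit named above. The RPS25B and RPS25E pair fell under 2-fold without leaf replicate 1 (0.999) or leaf replicate 3 (0.94).

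Smaller differences were found in the other proteins. RPS14C rose more than RPS14A by 0.98 (0.82 to 1.14) and more than RPS14B by 0.59 (0.41 to 0.76). RPS21B exceeded RPS21C by 0.78 (0.64 to 0.92) and RPS24A exceeded RPS24B by 0.76 (0.58 to 0.95). RPS4B and RPS4D rose more than RPS4A by 0.69 (0.43 to 0.95) and 0.58 (0.40 to 0.76), and RPS3aA rose more than RPS3aB by 0.61 (0.47 to 0.76). RPS7C exceeded RPS7A by 0.64 (0.48 to 0.80) and RPS7B by 0.56 (0.41 to 0.70). RPS8A exceeded the dim RPS8B by 0.50 (0.30 to 0.71). Among 3 pairs no difference passed the test: RPS7A and RPS7B (-0.08, interval -0.23 to 0.07), RPS4B and RPS4D (0.11, -0.11 to 0.33) and RPS25B and RPS25D (-0.16, -0.39 to 0.06). In 15 of the 24 pairs the upper bound of the difference was under 2-fold.

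**Figure D2:**
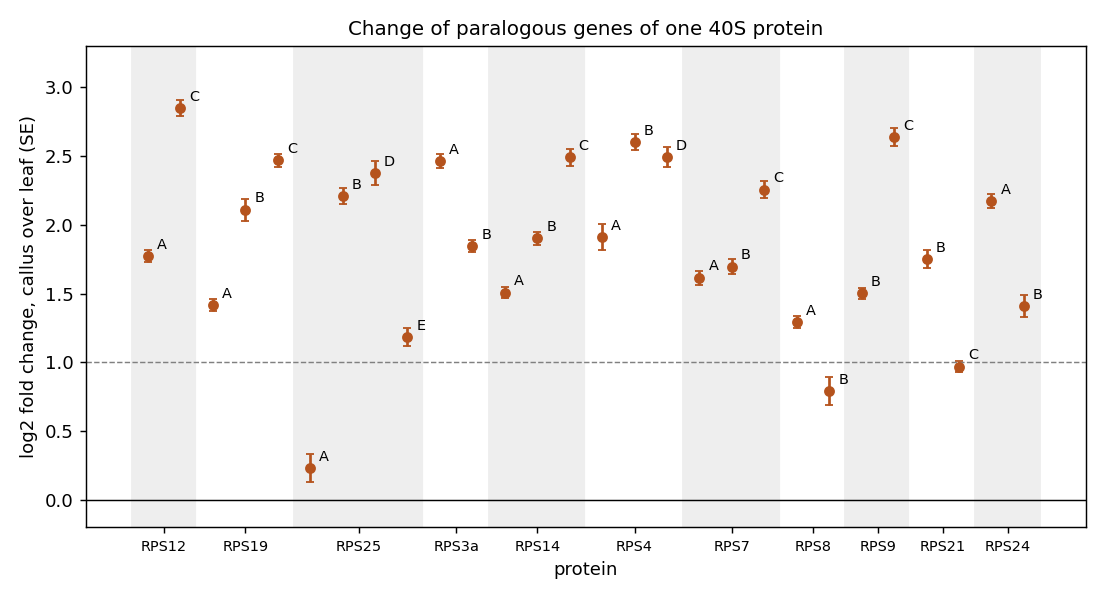
Log2 fold change of callus over leaf (points, bars for the SE) for each gene of the 11 proteins with 2 or more measured genes, named by the last letter of the gene. The dashed line marks 2-fold. RPS25 spans 0.23 to 2.37, while the 3 RPS7 genes span 1.62 to 2.26.

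Among the brighter genes, those with more signal tended to change less. Across the 31 genes other than the dim RPS25A and RPS8B, Spearman's rho between mean signal and log2 fold change was -0.71 (Pearson's r -0.64), a description across genes that share arrays and normalization, and chosen after seeing the data. With both dim genes included rho was -0.41 and r was 0.12 over 33 genes. The 15 genes with a callus mean above 12 had a median change of 1.77 and the other 18 a median of 2.19. The highest value on any array was 14.00, and genes such as RPS8A and RPS3C reached 13.28 and 13.26 in callus on average. Over the 77 measured genes for 60S proteins rho was -0.05 and r was 0.38, and over the 73 of them above the median signal of all genes rho was -0.22 and r was -0.05. In 15 of the 24 paralogue pairs the gene with the brighter probe set changed less. Many of these pairs share genes, and the split was not tested. The part that a ceiling of the signal plays in the smaller folds of bright genes was not tested.

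**Figure D3:**
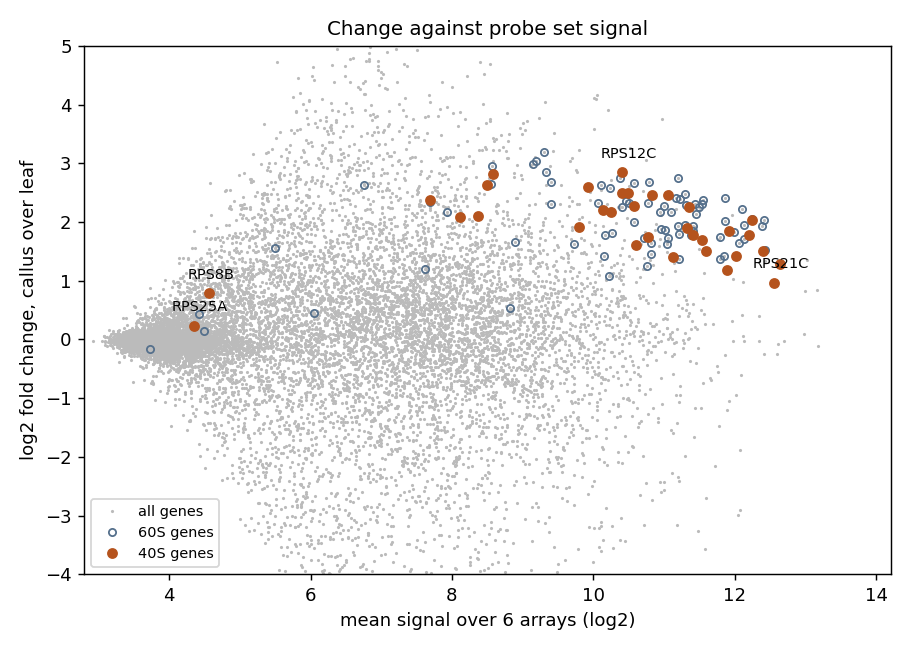
Log2 fold change of callus over leaf against the mean log2 signal over 6 arrays, for all genes (grey), 60S genes (open circles) and 40S genes (orange). The vertical axis is limited, so genes with larger changes are not drawn. Most 40S genes lie to the right and above 1, sloping down from RPS12C to RPS21C, with RPS25A and RPS8B at the dim end.

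The 40S genes were mostly bright. Their median signal over the arrays was 10.77, against 5.66 for all genes, and 31 of 33 lay above the latter. Among 509 genes with a mean signal above 10, a limit set after seeing the data, 32.0% were higher in callus and 19.3% lower, against 16.4% and 13.2% of all genes. The difference between bright and other genes was not tested. Of the 24 genes for 40S proteins in this range, 23 were higher, as were all 57 genes for 60S proteins. Both groups are counted among the 509 genes, of which 163 were higher. The 32.0% is thus made in part of ribosomal protein genes and is not the share of other bright genes.

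Most measured genes of the other cytosolic ribosome lists were also higher in callus, while those for plastid 30S proteins were lower. Of 45 further loci for 40S proteins 11 were measured, and 10 of these were higher, with a median log2 fold change of 1.91. The largest changes were those of AT1G23410, for a ribosomal protein made as a fusion with ubiquitin, at 4.53, AT3G57490 at 3.40 and AT4G30800 at 3.14. AT5G43640 was not called (0.45). Its means were 3.77 in callus and 3.32 in leaf, under the lower quartile of all arrays. Of loci for the 60S subunit, 124 were listed and 77 measured, 72 were higher, 0 lower and 5 not called, among them AT3G10950 with a log2 fold change of -0.17 (named after its value was seen). AT3G10950 was dim too, with means of 3.65 in callus and 3.82 in leaf, also under that quartile. The 77 genes had a median of 2.02 and quartiles of 1.66 and 2.36. Those of the 33 genes for 40S proteins were 1.51 and 2.37. The difference between the subunits was not tested.

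Genes for factors that assemble ribosomes were measured for 13 of 38 loci and all 13 were higher, with a median log2 fold change of 3.22 (9.32-fold). AT3G05060, for a nucleolar protein of the NOP58 type, changed by 3.69 ± 0.0615 (SE), AT5G15550 by 3.68, YAO by 3.62 and AT1G52930 by 3.61. Plastid 30S proteins went the opposite way. All 3 measured genes of 14 fell, with log2 fold changes of -4.30 for AT5G24490, -4.199 for AT1G64510 and -2.75 for AT3G13120. Only 2 of 25 loci for the TOR pathway and translation factors were measured and 0 were called, with EIF4A-2, for an RNA helicase of initiation, at 0.71 and RAPTOR1 at 0.36.

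**Figure D4:**
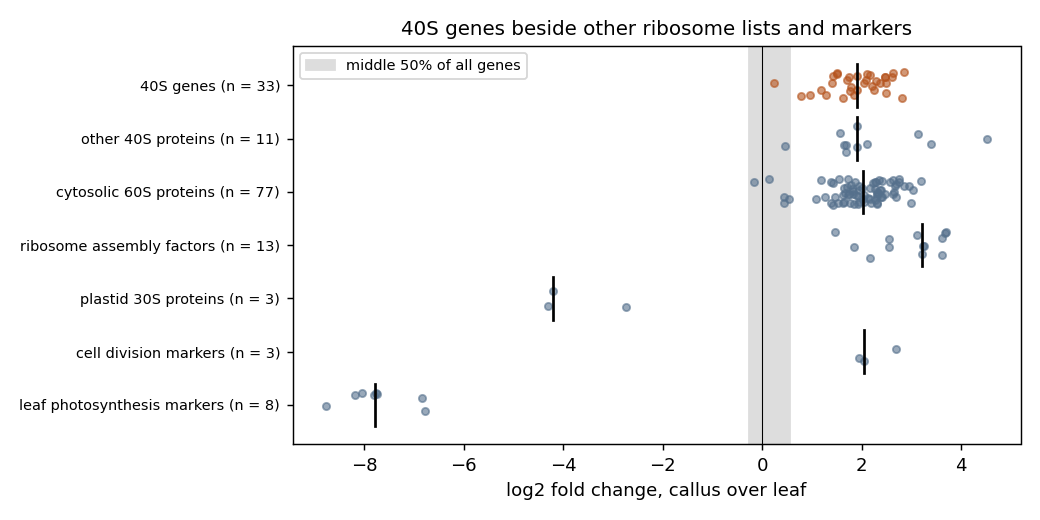
Log2 fold change of callus over leaf for the 40S genes (orange) and genes of other lists (blue), 1 point a gene, with black lines for the medians and a grey band between the quartiles of all genes. The 40S, 60S and assembly genes lie to the right of the band (medians 1.91, 2.02 and 3.22) and plastid 30S and photosynthesis genes to its left.

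Markers of the tissues moved with the groups. All 8 measured photosynthesis genes of 14 listed were lower in callus, and their mean signal was 5.16 to 5.25 on the callus arrays and 12.91 to 12.98 on the leaf arrays. Of 8 callus and root regulators 3 were measured, with BBM and LBD16 higher (log2 fold change 3.74 and 2.79) and LBD29 not called (0.34). LBD29 was dim, with means of 4.52 in callus and 4.18 in leaf, so its change is not exact. Cell division genes were measured for 3 of 15 loci and all 3 were higher, namely MCM7 (2.70), AUR2 (2.05) and AUR1 (1.96). Their mean signal ran from 6.82 to 7.01 in callus and from 4.57 to 4.83 in leaf. None of these genes is listed at 0, since RMA values have no zero. The part of dividing cells in the higher 40S expression was not tested.

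Control RNAs read at both ends showed no single direction between the tissues. For the actin control RNA, the 3' probe set exceeded the 5' one by 3.75 ± 0.0797 on callus arrays and 3.01 ± 0.218 on leaf arrays (mean ± SD of 3, two-sided exact permutation p = 0.1), but on another actin pair by 1.53 ± 0.0549 and 1.84 ± 0.268 (exact permutation p = 0.2). For GAPDH the excess was 0.55 ± 0.133 and 0.98 ± 0.0653 on the first pair (exact permutation p = 0.1) and 0.37 ± 0.0862 and 0.25 ± 0.0654 on the second (exact permutation p = 0.2). For ubiquitin it was 1.204 ± 0.0385 and 0.98 ± 0.118 on the first pair (exact permutation p = 0.1) and -0.085 ± 0.0340 and -0.075 ± 0.0725 on the second (exact permutation p = 1). The part of RNA quality in the 40S values was not tested. Replicate arrays correlated at 0.997 or more across genes in callus and at 0.995 or more in leaf, and tissues at 0.765 to 0.775.

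The size of the rise depended on what the arrays were scaled to. TIP41, a gene used as a reference in plants, was itself higher in callus by 0.59, while the poly-A controls, spiked in before labelling, were lower by 0.66 and the hybridization controls, added at hybridization, by 0.26. The array's control sets for plant genes were also higher in callus. The rise was 0.37 to 1.45 for actin, 1.13 to 1.56 for GAPDH and 0.05 to 0.41 for ubiquitin. Centring on these sets was not run, so TIP41 does not set a lower limit for the rise. Centring on TIP41 left 24 of the 33 genes higher, against 9.41% of all genes, with a median of 1.33 where all genes had -0.58. RPS8A, RPS9B, RPS14A, RPS19A, RPS24B and RPS25E then fell below 2-fold (0.60 to 0.92 on the log2 scale) and RPS25A turned to -0.36. Centring on the poly-A controls gave 32 genes higher, against 30.9% of all genes, and a median of 2.57 where all genes had 0.67. On the hybridization controls 32 were higher, against 20.8% of all genes, with a median of 2.17 against 0.27. RPS8B and RPS21C were called on both kinds of controls and RPS25A on neither.

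**Figure D5:**
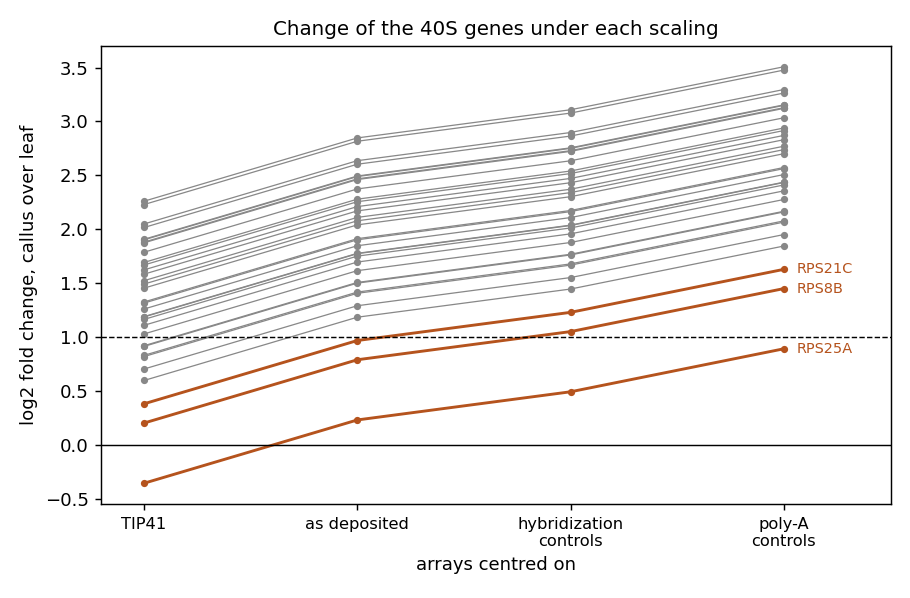
Log2 fold change of each of the 33 genes (lines) with the arrays as deposited and centred on TIP41, the hybridization controls or the poly-A controls. The dashed line marks 2-fold. Every line shifts by the same step within a scaling, RPS25A crosses 0 on TIP41 (-0.36), and RPS21C and RPS8B pass 2-fold on the controls.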

How the data were processed

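Biotin-labelled RNA, primed with oligo(dT), was read on 6 Affymetrix arrays. The authors deposited log2 expression values, and the processing notes name RMA (background correction, quantile normalization, probe set summary) and Partek. Of these no version is named by the sources read. Equal array distributions hide a change in total RNA per cell. The table held 22810 probe sets, 64 of them controls. Of the rest, 13513 had 1 gene in the platform's gene table, 503 had several and 8730 were not listed there. The brightest probe set of each gene was kept (13356 genes, named through the TAIR10.1 RefSeq table). All 33 probe sets of single 40S genes are of the plain type, and 0 of these genes had a second one. The tables give locus identifiers, and RPS names follow the usual nomenclature of Arabidopsis. Regions of the subunit come from general knowledge. No column was left unmapped (0).

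The tissues were compared in R 4.3.3 with limma 3.58.1, whose moderated variances followed the mean signal. P-values were adjusted over all genes (Benjamini-Hochberg). Genes were called at an adjusted p under 0.05 and more than 2-fold, the study's fold threshold. Paralogue differences were divided by the square root of 2, fitted with all genes, adjusted over genes and pairs, and scaled back. Intervals are 95%. The scripts were tested on simulated data. Alternatives covered thresholds, moderation, normalization, scaling, dim genes, probe set choice, a block for the replicate number and leaving out each array. Genes given by array were the 6 highest and 6 lowest changes, genes not called, genes nearest the threshold, and genes of proteins with a called pair. Of other lists at most 4 genes were named. Results for 1 protein are not reported here. Members and lists were chosen with earlier results of these data known. The number of arrays limits precision.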

Additional observations from a re-analysis of the deposited data

How the results depend on the processing

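The count of 30 genes higher in callus and 0 lower stayed within 1.5 times under every alternative run, from 24 (centred on TIP41) to 36 of 39 with the 6 shared probe sets added. With the replicate number as a block it was 30, with a median log2 fold change of 1.91 and 7 called pairs, and the block changed no other call. The numbers did not pair the arrays (correlations of same-numbered deviations -0.11, 0.07 and -0.04). The median was 1.33 on TIP41, 2.17 on the hybridization controls, 2.57 on the poly-A controls, 2.04 with genes below the median signal left out before the fit or with dim members left out of the count, and 1.85 with the shared sets added. Leaving out single arrays gave medians of 1.89 to 2.03, 30 genes higher each time, and 6 to 8 called pairs. Called pairs numbered 21 with no fold threshold. RPS25A reversed on TIP41 (-0.36), and the difference of RPS4B and RPS4D ranged from -0.014 to 0.18 over single arrays left out. The cause of these shifts was not tested beyond their construction. Of the other values for single genes and pairs, 790 kept their direction and call, 23 became called and 8 lost their call. Most of the 23 became called only because the fold threshold was dropped, with their values unchanged. RPS14C and RPS14A differed by more than 2-fold without leaf replicate 2, as did RPS25A and RPS25E without callus replicate 3 or leaf replicate 1. Calls rest on 3 arrays a group, and RPS25A and RPS8B are limited by their dim signal.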

Other observations

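The array also carried control probe sets for ribosomal RNA. The 25S rRNA set read 13.48, 13.38 and 13.39 in callus and 12.43, 12.10 and 12.24 in leaf, a difference of 1.16, and the 5S rRNA set read 4.24, 4.17 and 4.12 against 3.98, 3.96 and 3.95. The RNA was primed with oligo(dT), and ribosomal RNA carries no regular poly(A) tail, so these values do not measure its amount.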
